A study of Rattus norvegicus with 4 samples.

Results

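The transcripts described here encode proteoglycan core proteins of the basement membrane (Agrn, Hspg2) and of the cell surface (Sdc1, Sdc2, Sdc4, Gpc1), the nidogens (Nid1, Nid2) and a pair of enzymes that build heparan sulfate (Ext1, Ndst1). They were chosen by gene symbol from the function of their products, with earlier results of these data known. Of the 10 symbols, 9 were found among the 13261 rat genes used. The remaining gene, Hspg2, was read from a row (ENSRNOG00000021437) that carries the clone name AABR07073181.1, which RefSeq lists as a synonym of Hspg2. That match was made after the table was seen and how much of the gene the row covers was not tested, so its values are given beside the 9 genes and are not counted with them.

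The samples are glomeruli of 4 male Wistar rats, isolated by sieving, and they form a single group. Each rat received Adriamycin (ADR, doxorubicin) intravenously, an anthracycline that injures podocytes and is used to model nephrotic syndrome. The group accompanies a study of PPARγ agonists; untreated rats and rats given an agonist were not analysed here, and no value below gives a direction of change with ADR. The labels give alternative days of harvest for the study and do not tie a day to these animals. Replicate numbers 1 to 4 are names only. The labels list the 4 as separate samples; the p-values measure the spread between these samples.

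Heparan sulfate proteoglycans consist of a core protein that carries long, sulfated sugar chains. Agrin and perlecan, the product of Hspg2, are built into the glomerular basement membrane, nidogens bridge its laminin and collagen IV networks, and syndecans and glypicans hold the chains at the cell surface, where they bind growth factors and matrix. Agrin is known as the main heparan sulfate proteoglycan of the glomerular basement membrane and perlecan as more abundant in the mesangial matrix. The chains are extended by EXT1 with EXT2 and are first modified by N-deacetylase/N-sulfotransferases such as NDST1.

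Levels are given as the deposited log2 CPM, where CPM are reads scaled to a common total per sample and 0.5 reads were added to each count before the logarithm, or as CPM. Neither is corrected for transcript length, and no transcript length was used here, so levels are compared between animals for the same gene and not between genes. Replicates 1 to 4 held 13566962, 16207027, 15348629 and 15244063 reads in the genes used. The 9 genes had between 131 and 16296 reads in a sample, against a median of 439 for all genes. Together they made up 0.362% of the replicate 1 library (95% Wilson interval 0.358% to 0.365%), 0.301% in replicate 2 (0.298% to 0.304%), 0.32% in replicate 3 (0.318% to 0.323%) and 0.357% in replicate 4 (0.354% to 0.36%). These intervals cover counting error only. Gpc1 contributed much of the difference: without it, in a comparison added after the values were seen, the shares were 0.242%, 0.219%, 0.241% and 0.252%, with replicate 2 lowest and replicate 3 inside the interval of replicate 1 (0.239% to 0.244%). Coding mitochondrial genes, which enter the same totals, took 7.46%, 12.5%, 9.34% and 7.56% of the reads of replicates 1 to 4 and so were highest in replicates 2 and 3. With mitochondrial genes of every kind, coding or not, left out of the totals, the SD of Nid1 was 0.29 in place of 0.33 log2 CPM. That of Sdc2 was 0.33 in place of 0.37, and the animals shifted against each other by up to 0.08.

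Cell type markers also differed between the animals. All 12 podocyte markers had reads in each sample, and their summed level was 11900 CPM in replicate 1, 6920 in replicate 2, 9080 in replicate 3 and 10800 in replicate 4. In 11 of these 12 genes replicate 2 was the lowest animal. The 7 endothelial markers summed to 5480, 5980, 7110 and 5840 CPM in replicates 1 to 4, with replicate 3 highest in 6 of 7. The 6 mesangial markers summed to 1780, 1800, 1910 and 2250 CPM, but replicate 2 was lowest in 5 of 6; the exception, Des, carried much of the sum and was highest there. Itga8, an integrin gene of the mesangial list, had 8.60, 7.50, 8.21 and 8.78 log2 CPM. The 8 proximal tubule markers summed to 5340, 3810, 2570 and 4250 CPM, with replicate 3 lowest in 8 of 8, and the 6 distal nephron markers to 633, 479, 581 and 546 CPM, with replicate 3 lowest in 0 of 6. The 4 parietal epithelial markers summed to 435, 454, 401 and 553 CPM, mostly from Cd9, with replicate 3 lowest in 3 of 4. The 7 leukocyte markers summed to 825, 1000, 896 and 787 CPM, mostly from Cd74; replicate 1 was lowest in 6 of the 7 and replicate 3 highest in 4. The part of these differences in the values of the proteoglycan genes was not tested. In whole glomeruli, fewer cells of a type and less RNA per cell cannot be told apart.

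Agrn, the agrin gene, was among the genes that differed least between the rats. It had 534.2, 510.4, 568.3 and 548.7 CPM in replicates 1 to 4, a mean of 9.08 ± 0.07 log2 CPM (SD, n = 4). The highest animal exceeded the lowest by 1.11-fold. After subtraction of counting error its coefficient of variation was 4.37%, below the median of 10.8% over all genes. Its lowest animal was replicate 2 with the deposited scaling and replicate 1 with mitochondrial genes out of the totals, so no order of its animals can be given.

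The row matched to Hspg2 had 179.6, 174.6, 212.3 and 154.0 CPM, or 7.48 ± 0.19 log2 CPM (SD, n = 4). It was highest in replicate 3 and lowest in replicate 4, a 1.38-fold range. Reads of Agrn exceeded those of this row in each animal, with a log2 ratio of 1.57, 1.55, 1.42 and 1.83. The size of the ratio depends on transcript length, but its spread of 0.17 (SD, n = 4) does not, and counting error on a single ratio was at most 0.034. Without replicate 4 this spread was 0.08.

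The nidogen genes differed from each other in which animal was high. Nid1, for nidogen-1, had 340.6, 216.8, 285.4 and 362.6 CPM (8.21 ± 0.33 log2 CPM, SD, n = 4). Replicate 4 was highest and replicate 2 lowest, 1.67-fold apart; replicate 2 was also lowest for most podocyte and mesangial markers, and without it the SD was 0.18. Nid2, for nidogen-2, had 608.8, 597.8, 755.7 and 611.7 CPM (9.32 ± 0.16 log2 CPM, SD, n = 4). Here replicate 3 stood above the other animals, which lay between 597.8 and 611.7 CPM and had an SD of 0.02 log2 CPM. Replicate 3 was also highest in 6 of 7 endothelial markers and lowest in 8 of 8 proximal tubule markers.

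The ratio of Nid1 to Nid2 reads within an animal does not depend on how samples are scaled. Replicates 1 and 4 had ratios of 0.559 and 0.593, above the 0.363 and 0.378 of replicates 2 and 3. On the log2 scale the mean was -1.12 ± 0.37 (SD, n = 4), with counting error of at most 0.028 on a single ratio. The gap between 0.378 and 0.559 exceeded counting error. The log2 ratio of Nid1 to the Hspg2 row had an SD of 0.43, at 0.92, 0.31, 0.43 and 1.24 in replicates 1 to 4.

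**Figure D1:**
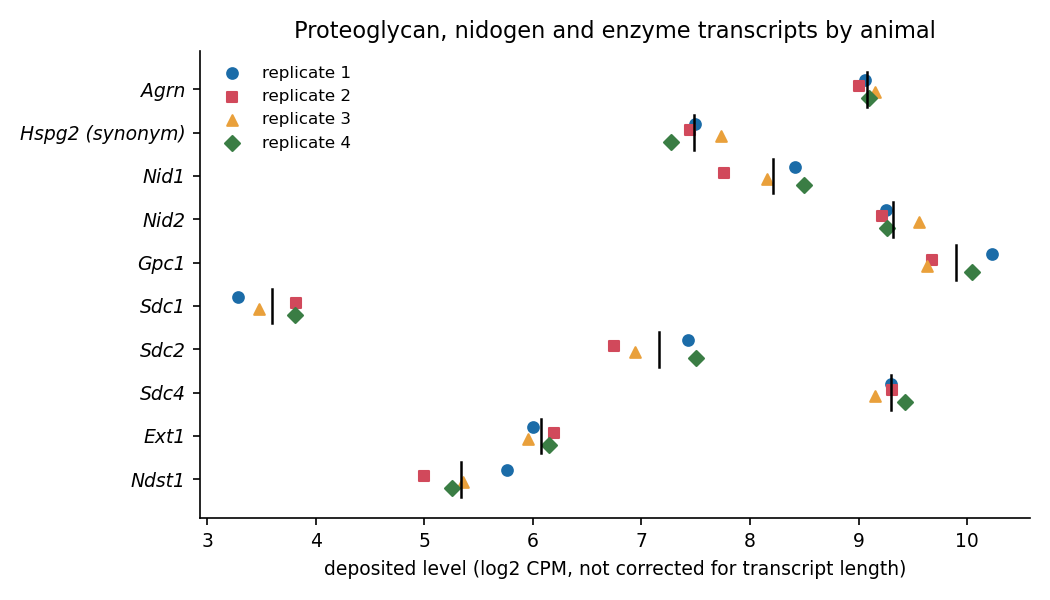
Deposited level (x axis, log2 CPM, not corrected for transcript length) of each gene in each of the 4 ADR rats; points are animals and black bars are means. Agrn, Sdc4 and Ext1 lie close together over animals, with an SD of 0.07, 0.12 and 0.12, whereas Nid1, Sdc2 and Ndst1 have a range of 0.74, 0.75 and 0.76.

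Among the cell surface core proteins, Gpc1 had its higher values in replicates 1 and 4, as Nid1 did. Gpc1 encodes glypican-1, which is tethered to the membrane by a lipid anchor. It had 1201, 822.9, 791.0 and 1058 CPM (9.90 ± 0.29 log2 CPM, SD, n = 4). Replicates 1 and 4 were above replicates 2 and 3, with a 1.52-fold range and no value between 822.9 and 1058 CPM. The summed podocyte and proximal tubule markers were likewise higher in replicates 1 and 4, and the mitochondrial share lower. Gpc1 was lowest in replicate 3, as were 8 of 8 proximal tubule markers, while 11 of 12 podocyte markers were lowest in replicate 2. The log2 ratio of Agrn to Gpc1 reads followed in reverse, at -1.17, -0.69, -0.48 and -0.95.

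Of the 3 syndecans among the 9 genes, which span the membrane, Sdc2 varied most. It had 173.0, 107.8, 123.1 and 181.4 CPM (7.16 ± 0.37 log2 CPM, SD, n = 4), the largest SD of the 9 genes. As for Gpc1 and the summed podocyte and proximal tubule markers, replicates 1 and 4 were high and replicates 2 and 3 low. Replicate 4 was highest and replicate 2 lowest, as for Pdgfrb, Itga8, Gata3 and Serpine2 of the mesangial list, but not its Des and Cspg4. Of the 12 podocyte markers, 11 were highest in replicate 1. Sdc4, a focal adhesion component, had 631.2, 634.9, 567.4 and 689.6 CPM (9.30 ± 0.12 log2 CPM, SD, n = 4). Its range was 1.22-fold, with replicate 3 lowest, and the SD was 0.07 without that animal. Replicate 3 was also lowest in 8 of 8 proximal tubule and 3 of 4 parietal epithelial markers, beside 19.6% of all genes. The highest animal was replicate 4 for Sdc4 but replicate 1 for 7 of 8 proximal tubule markers.

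Sdc1, the syndecan typical of epithelia and plasma cells, had few reads, namely 131, 229, 171 and 213. These correspond to 9.656, 14.13, 11.14 and 13.97 CPM (3.60 ± 0.27 log2 CPM, SD, n = 4). Replicate 1 was lowest and replicate 2 highest, the reverse of the order those 2 animals had for Sdc2. Also lowest in replicate 1 were 6 of 7 leukocyte, 4 of 7 endothelial and 3 of 6 distal nephron markers, beside 35.0% of all genes. By contrast, 7 of 8 proximal tubule markers were highest in replicate 1, and the leukocyte sum was lowest in replicate 4, at 787 CPM. As for Sdc4, replicates 2 and 4 were above replicates 1 and 3, and of the pairs among these 3 syndecans Sdc1 and Sdc4 had the closest profiles. Counting error at the lowest count was 0.126 on the log2 scale, and after subtraction of counting error the coefficient of variation was 16.3%. The log2 ratio of Sdc2 to Sdc4 ran from -2.56 in replicate 2 to -1.87 in replicate 1, and that of Sdc1 to Sdc4 from -6.03 in replicate 1 to -5.49 in replicate 2. The SD of the former fell from 0.32 to 0.18 without replicate 2, and that of the latter from 0.23 to 0.09 without replicate 1.

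The 250 bases before the start of Sdc1 and Sdc4 are shown because, of these 3 syndecan genes, they are the ones with a window in the RefSeq promoter table. The table (build GRCr8) held 6 of the 10 genes. Sdc1 lies at chr6:37281791-37282040 on the plus strand and Sdc4 at chr3:173592924-173593173 on the minus strand. The expression table was made on another build, Rnor_6.0, and carries no coordinates. Sequences run 5′ to 3′ and capitals mark the GC box GGGCGG, a short motif of GC-rich promoters, searched on both strands.
Sdc1: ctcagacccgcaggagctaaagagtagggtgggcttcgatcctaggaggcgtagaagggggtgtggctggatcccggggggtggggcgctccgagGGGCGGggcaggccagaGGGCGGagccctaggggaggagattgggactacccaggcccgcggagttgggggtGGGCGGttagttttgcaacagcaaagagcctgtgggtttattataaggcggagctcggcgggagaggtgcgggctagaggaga
Sdc4: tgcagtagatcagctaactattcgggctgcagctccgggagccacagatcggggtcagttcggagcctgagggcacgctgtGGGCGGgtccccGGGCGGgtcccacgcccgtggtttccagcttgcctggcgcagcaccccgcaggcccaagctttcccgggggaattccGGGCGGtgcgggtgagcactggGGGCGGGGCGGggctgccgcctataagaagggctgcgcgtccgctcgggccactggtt
The Sdc1 window held 3 GC boxes and the Sdc4 window 5, of which the last 2 overlap by a base; 30.5% of 33469 promoter windows of the same length held at least 1. GC content was 65.2% and 70.0%, against a median of 51.2%. Neither window held TATAAA or CACGTG, found in 12.9% and 5.59% of windows, and Sdc1 alone of this pair held CCAAT, found in 34.0%. A match is a description of these letters and not evidence of a site.

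The enzyme genes also differed in their spread. Ext1, whose product polymerises the heparan sulfate chain with EXT2, had 63.76, 73.18, 61.83 and 71.04 CPM (6.07 ± 0.12 log2 CPM, SD, n = 4), a 1.18-fold range. As for Sdc4, its lowest animal was replicate 3, where 19.6% of all genes, the proximal tubule markers and most parietal epithelial markers were lowest. However, 7 of 8 proximal tubule markers were highest in replicate 1, where Ext1 was only at 63.76 CPM. Ndst1, whose product replaces acetyl by sulfate groups on the growing chain, had 54.10, 31.96, 41.05 and 37.98 CPM (5.34 ± 0.32 log2 CPM, SD, n = 4). Ndst1 was highest in replicate 1 and lowest in replicate 2, 1.69-fold apart, and 11 of the 12 podocyte markers had the same extremes; without replicate 1 its SD was 0.18. For Ext1 the highest animal was replicate 2. The ratio of Ndst1 to Ext1 reads was accordingly 0.849, 0.437, 0.664 and 0.535 in replicates 1 to 4, the widest range (1.94-fold) of the 8 pairs of genes examined.

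**Figure D2:**
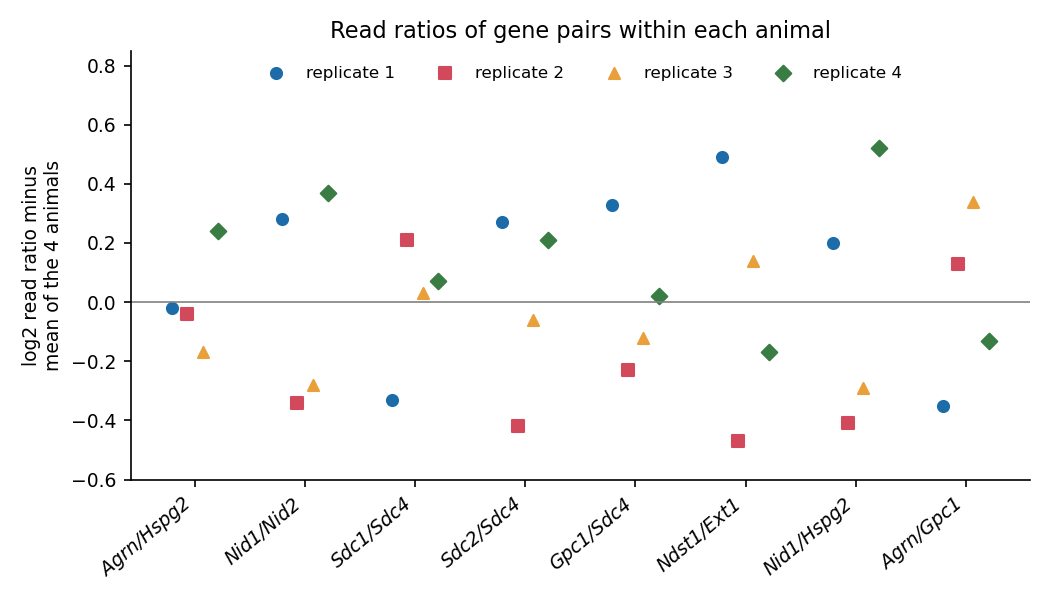
Log2 ratio of the reads of 2 genes within each rat, minus the mean of that ratio over the 4 rats (y axis), for 8 pairs. A value of this kind does not depend on sample scaling; replicate 2 is lowest for Nid1/Nid2, Sdc2/Sdc4, Gpc1/Sdc4, Ndst1/Ext1 and Nid1/Hspg2.

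The profiles of the genes were then set side by side with the marker lists. Replicate 2 was the lowest animal for 5 of the 9 genes (Agrn, Nid1, Nid2, Sdc2 and Ndst1), against 31.5% of all 13261 genes. This count depended on the scaling: it was 4 with trimmed-mean or median-of-ratios factors (27.3% and 27.6% of all genes) and 3 with mitochondrial genes out of the totals (22.7%), where Nid1, Sdc2 and Ndst1 were left. Replicate 3 was lowest for 3 (Gpc1, Sdc4 and Ext1), against 19.6%, replicate 1 for Sdc1, against 35.0%, and replicate 4 for 0, against 13.9%. The highest animal was replicate 1 for 2 genes (27.7% of all genes), replicate 2 for 2 (21.3%), replicate 3 for 2 (29.6%) and replicate 4 for 3 (21.4%). Likeness of profile was measured as the root mean square distance between log2 values centred on each gene's mean, over the 4 samples. Nid1 lay 0.10 from Sdc2, and Sdc2 lay 0.14 from Gpc1. Sdc4 lay 0.07 from Ext1. The syndecans lay 0.20 apart for Sdc1 and Sdc4, 0.27 for Sdc2 and Sdc4 and 0.44 for Sdc1 and Sdc2. Nid2 lay 0.09 from the Hspg2 row. Distances between genes with little spread are small whatever their order of animals, so they are given as a description only.

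**Figure D3:**
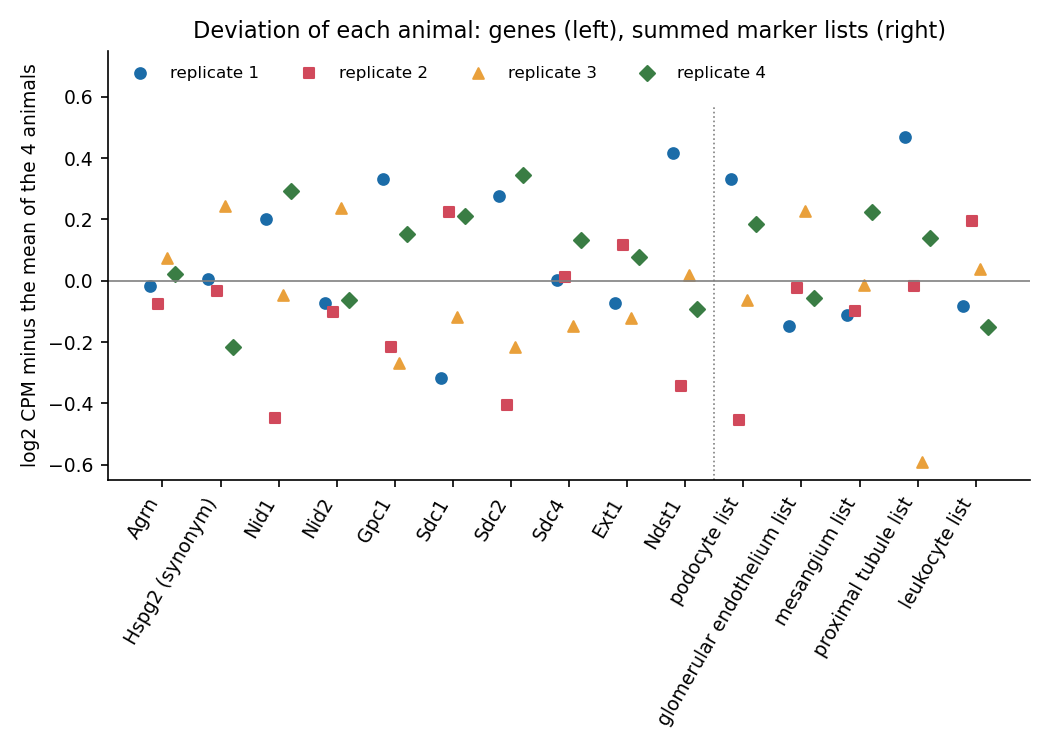
Log2 CPM of each rat minus the mean of the 4 rats (y axis) for each gene (left of the dotted line) and for the summed CPM of 5 marker lists (right). Replicate 2 is low for Nid1, Sdc2, Ndst1 and the podocyte list (and lowest for 5 of 6 mesangial markers, which their sum does not show), and replicate 3 is high for Nid2, the Hspg2 row and the endothelial list.

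The genes of the whole table nearest to the 3 most variable of the 9 were listed by the same distance. For Nid1 the nearest was Papss1, at a distance of 0.015, with 6.97, 6.33, 6.74 and 7.05 log2 CPM in replicates 1 to 4. Papss1 makes the sulfate donor used by sulfotransferases. It was followed by Tp53inp1 (0.015) and F2r (0.018). For Sdc2 the nearest were Ccdc106 (0.015), Dock5 (0.027) and Cnksr3 (0.029), and for Ndst1 they were AABR07072853.5 (0.026), Npc1 (0.033) and Amhr2 (0.034). With 4 samples and 13261 genes, close profiles are easily found.

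Variation between animals was compared with counting error and with other genes of like level. All 9 genes varied beyond Poisson sampling, as did 69.5% of all genes (chi-square test, threshold 0.05 after Benjamini-Hochberg adjustment). The weakest of these calls were those of Sdc1 (adjusted p = 0.00125, chi-square test) and Ext1 (adjusted p = 0.000273, chi-square test). Sdc1 was not called without replicate 1 (adjusted p = 0.0617) and Nid2 was not called without replicate 3 (adjusted p = 0.31). The median SD of the 9 genes was 0.27 log2 CPM, beside 0.18 over all genes, and 5 of the 9 lay above the latter.

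Excess variance over genes of similar level was tested with limma's abundance trend. It called 0 of the 9 genes and 0.0% of all genes at an adjusted p under 0.05. At an unadjusted p under 0.05 it called 0 of the 9 genes and 5.47% of all genes. The variance of Sdc2 was 6.30 times its trend value (limma adjusted p = 0.913), that of Nid1 4.38 times (limma adjusted p = 0.940) and that of Ndst1 4.05 times (limma adjusted p = 0.946). The smallest limma adjusted p of all genes was 0.912, reached also by Mmp9 with a variance 79.8 times its trend value. These adjusted values are therefore no evidence that a gene lacked excess variance. At the other end, the variance of Agrn was 0.133 times and that of Sdc4 0.384 times the trend value.

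A Pearson statistic of the reads at a dispersion trend held fixed called Sdc2 alone of the 9 genes (adjusted p = 0.0154), where 7.52% of all genes were called. Ndst1 missed the threshold (adjusted p = 0.0556), as did Nid1 (adjusted p = 0.261) and Gpc1 (adjusted p = 0.523). The call of Sdc2 was lost without replicate 2, 3 or 4, at adjusted p = 0.271, 0.13 and 0.215 in this test. Its SD was 0.31, 0.42 and 0.35 log2 CPM in those fits, which hold fewer samples, beside 0.37 with all samples. A count of 1 in 9 is near the background share.

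The other genes of heparan sulfate synthesis and of the basement membrane were described from 8 lists fixed by name, with 82 genes in all, the 9 genes and the Hspg2 row included. The fixed-trend test called 11 of the 82, or 13.4%, beside 7.52% of all genes, and each list's count below is to be read against that share. The lists were chosen with earlier results known. Of the 11 called genes 10, all but Vcan, were lowest in replicate 2, beside 31.5% of all genes. This animal also had the lowest podocyte sum and the highest mitochondrial share, and a link of these to the calls was not tested. Of 11 genes for the linker and chain polymerisation, 10 had values, and the fixed-trend test called Extl3. Extl3, an EXT-like glycosyltransferase that acts at chain initiation, had 6.15, 5.13, 5.54 and 6.01 log2 CPM in replicates 1 to 4 (adjusted p = 0.0015 at the fixed trend), with replicate 2 lowest. Fam20b, the kinase that phosphorylates the xylose of the linker, was measured at 126 ± 16.4 CPM (SD, n = 4). Xylt1, a xylosyltransferase that starts the linker, was measured at 4.08 ± 0.61 CPM. Extl2 came second to Extl3 in spread, at 2.59 ± 0.24 log2 CPM. Ext2, the partner of Ext1, was as even as Ext1, at 6.64 ± 0.10 log2 CPM.

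Of 20 genes for sulfation and epimerisation, 13 had values and 1 was called at the fixed trend. This was Hs3st3b1, a 3-O-sulfotransferase, with 7.32, 6.05, 6.50 and 7.09 log2 CPM (adjusted p = 2.5e-06 at the fixed trend). Replicates 1 and 4 were again above replicates 2 and 3, 2.41-fold between the extremes. Its relative Hs3st3a1 had 4.51 ± 2.06 CPM (SD, n = 4) and the largest SD of the list, 0.81 log2 CPM; it was not called (adjusted p = 0.0858 at the fixed trend). Hs3st6, another gene of that family, had 123 ± 18.8 CPM.

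Of 12 genes for editing and breakdown of the chains, 8 had values under a single row, and Sulf1 was called. SULF1 removes 6-O-sulfate from finished chains outside the cell. It had 8.16, 7.09, 7.66 and 8.27 log2 CPM in replicates 1 to 4 (adjusted p = 0.000894 at the fixed trend), or 233 ± 79.2 CPM (SD, n = 4). Ids, a lysosomal sulfatase, followed in spread at 5.24 ± 0.34 log2 CPM and was not called. Heparanase, Hpse, which cleaves the chains, had 25.9 ± 4.61 CPM; replicate 2 was its highest animal, at 4.99 log2 CPM, where Sulf1 was lowest.

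The list of heparan sulfate core proteins had values for 13 of 14 genes, the Hspg2 row included, and 3 were called at the fixed trend, namely Sdc2, Gpc3 and Gpc6. Gpc6 had 4.25, 2.59, 3.68 and 4.17 log2 CPM (adjusted p = 0.00128 at the fixed trend). Gpc3 had 5.69, 5.01, 5.89 and 5.93 log2 CPM (adjusted p = 0.035 at the fixed trend). For these glypicans replicate 2 was the lowest animal, and the other 3 lay nearer to each other than to it. Gpc2, another glypican, had 5.58 ± 1.38 CPM (SD, n = 4) and was not called.

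**Figure D4:**
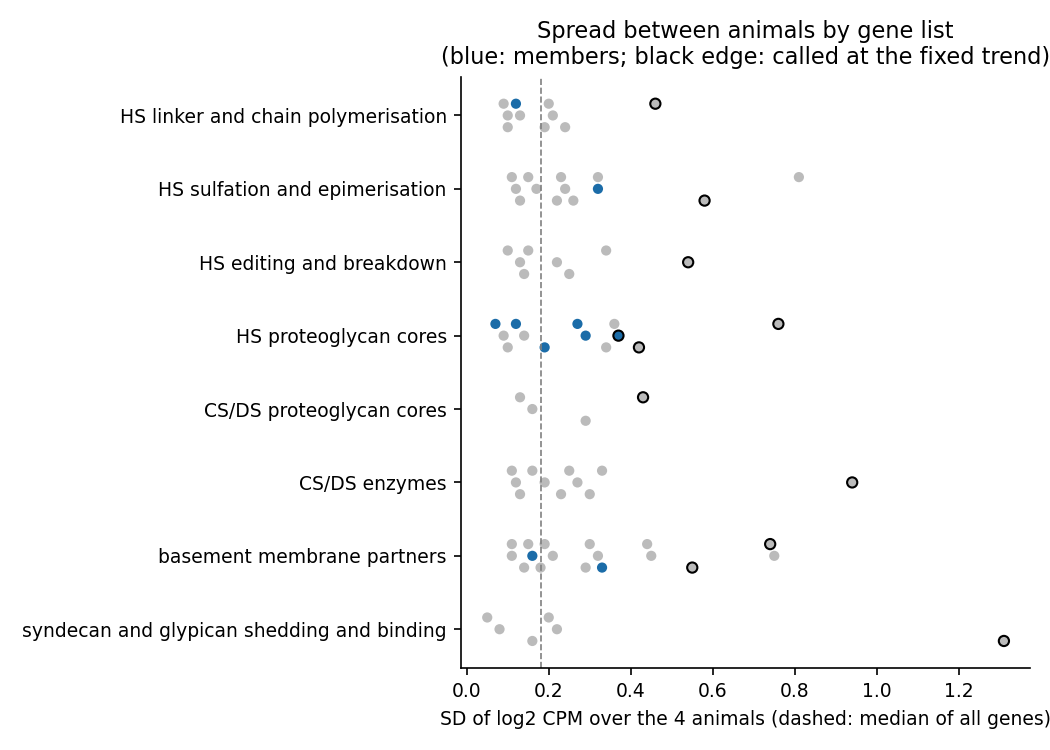
SD of log2 CPM over the 4 rats (x axis) for each gene of 8 lists (HS, heparan sulfate; CS/DS, chondroitin and dermatan sulfate); blue points are the genes described above, the Hspg2 row included, and a black edge marks genes called at the fixed dispersion trend. The dashed line is the median of all genes, 0.18; Mmp9, at 1.31, is farthest to the right.

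Chondroitin and dermatan sulfate, the other sulfated chains of matrix proteoglycans, were covered by 2 lists. Of 8 core protein genes 4 had values, and Vcan, for versican, was called, with 4.71, 5.21, 5.77 and 5.28 log2 CPM (adjusted p = 0.00216 at the fixed trend). It was highest in replicate 3, as were 6 of the 7 endothelial and 4 of the 7 leukocyte markers; the other 3 leukocyte markers, and the sum of that list, were highest in replicate 2. Bgn, for biglycan, had 892 ± 171 CPM (SD, n = 4) and was not called. Of 13 enzyme genes 11 had values, and Ust, a uronyl 2-O-sulfotransferase, was called, with 4.40, 2.14, 3.21 and 3.58 log2 CPM (adjusted p = 7.07e-07 at the fixed trend). Chst15 had the next largest SD, 0.33, and Csgalnact1 and Chst11 had 121 ± 21.7 and 4.99 ± 0.918 CPM.

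Of 19 basement membrane genes, nidogens included, 17 had values and 2 were called at the fixed trend. These were Col4a3, with 9.98, 8.31, 8.88 and 9.59 log2 CPM (adjusted p = 9.39e-06 at the fixed trend), and Col4a5, with 8.61, 7.55, 7.85 and 8.63 log2 CPM (adjusted p = 0.000888 at the fixed trend). Both encode chains of the collagen IV network that podocytes add to the mature glomerular basement membrane. Replicates 1 and 4 were above replicates 2 and 3 in each, as for Nid1, Sdc2 and Gpc1. Fbln2, for fibulin-2, which binds nidogens, had 3.27 ± 1.66 CPM (SD, n = 4) and the largest SD of the list, 0.75 log2 CPM, and was not called (adjusted p = 0.0595 at the fixed trend). Sparc, which encodes a collagen-binding matrix protein, had 6550 ± 647 CPM.

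Of 8 genes for shedding and binding of syndecans and glypicans, 6 had values. Mmp9, a metalloproteinase that can shed syndecans, was called, with 8.51, 5.36, 7.42 and 7.19 log2 CPM (adjusted p = 2.93e-25 at the fixed trend). Replicate 1 was highest and replicate 2 lowest, 8.94-fold apart. Sdcbp, for syntenin, which binds the cytoplasmic tail of syndecans, was at the other extreme with 9.01 ± 0.05 log2 CPM (SD, n = 4). Timp3, an inhibitor of shedding proteases, had 8.43 ± 0.22 log2 CPM, and Mmp14, a membrane-bound metalloproteinase, had 61.2 ± 8.47 CPM. limma's trend called 0 genes of the 8 lists, and 10 of the 82 genes, or 12.2%, passed an unadjusted p under 0.05, beside 5.47% of all genes.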

How the data were processed

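Poly(A) RNA of sieved glomeruli from 4 ADR rats was sequenced as stranded paired ends, per the labels' protocols. The submitters' processing notes name HISAT2, featureCounts, Subread and limma with build Rnor_6.0, without roles or versions; the use of strand in counting and the filter on low genes are not given in the sources used here. The authors deposited log2 values for 13265 rows. In every column, 2 raised to the value was a whole number of reads plus 0.5 times a constant of that sample for 100% of values (tolerance 0.01 reads), so the deposited log2 values were read as log2 CPM and reads were recovered. In 4 rows the values were displaced and these were left out; 0 value columns belonged to no sample.

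CPM were computed from recovered reads and their totals. The excess-variance test was an intercept-only limma 3.58.1 fit (R 4.3.3) on log2(CPM + 1) with its F test against the trend. The fixed-trend test chose a dispersion for each of 40 abundance bins that brought the bin's median statistic to the chi-square median at 3 degrees of freedom. P-values were adjusted by Benjamini-Hochberg over 13261 genes. Scripts were tested on simulated data. Python 3.11.15 and scipy 1.17.1 were used. Alternatives were other scalings, pseudocounts, a filter on low genes and leaving out each replicate.

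The 10 genes, the lists and the tests were chosen with earlier results of these data known. Named genes were all 10, and in each list the highest and the lowest gene by CPM, which ranks genes without regard to length. The 2 most variable genes of each list and any called gene were also named, with the 3 nearest profiles of the 3 most variable genes. Ext2, Ndst2, the cell type markers named singly and the comparison of lowest animals were added after the values were seen. Genes of the lists with no single row in the table were not analysed here.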

Additional observations from a re-analysis of the deposited data

Results flagged for a closer look

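Among 90 results, 2 held an animal distant from its 3 fellows, as judged by the gap to the nearest value over the whole range, with 0.829 as the 95% critical value for 4 samples; chance flags about 1 in 20, and 5.08% of all genes met the criterion. Nid2 was set apart by replicate 3 (ratio 0.902), at 9.56 log2 CPM against 9.22 to 9.26 in the other animals. Ndst2, which encodes a relative of NDST1, was set apart by replicate 1 (ratio 0.976), with 170 reads against 275 to 293, or 3.65 log2 CPM against 4.17 to 4.18; in that animal Ndst1 was highest, at 5.76 log2 CPM.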

How the results depend on the processing

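The number of the 9 genes called at the fixed trend, 1 with all samples and the deposited scaling, was 2 with trimmed-mean factors and 2 with median-of-ratios factors, where Ndst1 joined Sdc2 (adjusted p = 0.0479 and 0.0428) and the share of all genes called was 8.3% and 8.22% in place of 7.52%, and ran from 0 to 1 when each replicate was left out in turn; fewer samples enter those fits. limma called 0 of all genes tested under every alternative run, so its 0 of the 9 genes shows no stability, with at most 1 of the 9 at an unadjusted p under 0.05, and the number beyond counting noise ran from 8 to 9. Of 154 recomputed values, 141 stayed within their criterion. Leaving mitochondrial genes out of the totals raised all levels, so the means of Agrn, Sdc4 and Ext1 moved by more than their SD, to 9.22, 9.44 and 6.22 log2 CPM. The SD of the Hspg2 row was 0.12 without replicate 3, and that of the Gpc1 to Sdc4 ratio was 0.12 without replicate 1. The Nid1 to Nid2 ratio ran from -1.24 to -1.0 (log2) with each replicate left out. No paired analysis was possible because there is a single group. Depth limits Sdc1 most, with 131 reads in its lowest sample, and the number of animals limits every statement on spread.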
